A study of Homo sapiens with 18 samples.

Results

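The response to oxaliplatin (OXA) alone was compared between HT29 and its OXA-resistant subline HTOXAR3 on the 12 of 18 arrays whose labels name untreated cells or cells given OXA only. HT29 is an established human colorectal adenocarcinoma line that carries mutant p53, and HTOXAR3 was selected from it by growth in the drug at steadily raised concentrations, so the comparison rests on 1 parental line and 1 subline. There were 4 groups of 3 arrays, namely HT29 left untreated, HT29 exposed to 10 uM OXA for 24 h, HTOXAR3 left untreated and HTOXAR3 exposed to 30 uM OXA for 24 h. The labels name no introduced allele, and all groups were grown in the same medium. The labels and the array methods of the study give the controls as untreated, although another passage of its text speaks of vehicle. Each dose was the IC50 of its own line, so the lines were matched by the effect of the drug on growth, and the part of the dose and the part of the line cannot be told apart. The other 6 arrays, of both lines after OXA plus Curcumin, shared the normalization. They entered the fit only for the estimate of the spread, apart from 1 comparison given at the end.

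OXA is a platinum drug whose adducts form mainly between adjacent guanines of a DNA strand and block RNA and DNA polymerases that meet them. Cells answer with nucleotide excision and recombination repair, checkpoint signalling, activation of p53 where it is intact, NF-κB signalling, and, for OXA in particular, impaired ribosome production. A gene was described here by its differential response, the log2 change after OXA in HTOXAR3 minus that in HT29, so that a positive value means that the gene fell less or rose more in HTOXAR3. The values are differences of log2 intensity after background correction and quantile normalization, and a gene was called where limma gave a p adjusted by the method of Benjamini and Yekutieli (BY) below 0.05 and a fold above 1.2.

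The labelled tissue of origin was checked first. Of 11 markers of colon epithelium, 10 were well above background on all 12 arrays, and their summed intensity was 738800 to 768600 in HT29 left untreated and 808100 to 841700 with OXA, against 763000 to 784200 and 761800 to 770500 in HTOXAR3. None of 8 fibroblast markers was above background on all 12 arrays, and *COL1A2*, *COL3A1*, *PDGFRA* and *THY1* were above it on none. Of 8 leukocyte markers 5 were above background throughout, while *CSF1R* was above it on none. Their summed intensity was 2477 to 2707 in HT29 left untreated and 1581 to 1616 with OXA, against 3158 to 3299 and 2355 to 2453 in HTOXAR3, and its part in the results was not tested. Of 5 endothelial markers 2 were above background throughout, with summed intensities of at most 445.5, while *KDR* was above it on none. No marker list of another cell type held a called gene.

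Of the RefSeq promoters of GRCh38.p14, 2 sets bear on the results. The first set is shown because 4 CXC chemokine genes, whose products attract neutrophils and whose transcription NF-κB drives, share the letters GGAATTTCC, a form of the κB motif, in capitals here. The stretches lie on chromosome 4, run 5′ to 3′ on the strand of the gene and hold 30 bases on either side of the motif.
*CXCL8*, plus strand, chr4:73740448-73740516: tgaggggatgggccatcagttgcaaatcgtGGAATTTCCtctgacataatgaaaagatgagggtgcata
*CXCL1*, plus strand, chr4:73869285-73869353: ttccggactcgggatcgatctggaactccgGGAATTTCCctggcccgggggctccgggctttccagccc
*CXCL2*, minus strand, chr4:74099234-74099302: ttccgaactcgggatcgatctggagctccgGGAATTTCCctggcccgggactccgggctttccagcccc
*CXCL3*, minus strand, chr4:74038729-74038797: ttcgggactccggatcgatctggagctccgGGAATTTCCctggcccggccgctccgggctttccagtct
The motif, searched on both strands of the 250 bases before the start, was found in 145 of 35116 promoters (0.413%). A match describes these letters and says nothing of binding.

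The second set is shown because the promoters of the genes with a positive value, described further on, were rich in G and C. It gives the 120 bases before the start of 3 of them and of *RPL22L1*, a ribosomal protein paralog that fell in HTOXAR3 and not in HT29, with every GG and CC in capitals.
*PIGQ*, plus strand, chr16:569848-569967: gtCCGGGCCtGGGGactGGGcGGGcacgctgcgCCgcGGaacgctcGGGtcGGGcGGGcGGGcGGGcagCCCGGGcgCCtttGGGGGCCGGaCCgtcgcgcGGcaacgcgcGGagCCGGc
*SLC38A10*, minus strand, chr17:81295308-81295427: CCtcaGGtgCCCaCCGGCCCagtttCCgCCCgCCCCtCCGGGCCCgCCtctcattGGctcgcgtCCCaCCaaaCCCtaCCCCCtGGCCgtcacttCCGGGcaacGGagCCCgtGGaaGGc
*ARFRP1*, minus strand, chr20:63707854-63707973: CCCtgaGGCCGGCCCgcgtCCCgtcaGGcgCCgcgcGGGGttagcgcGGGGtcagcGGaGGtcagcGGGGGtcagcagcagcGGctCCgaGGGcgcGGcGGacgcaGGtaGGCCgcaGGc
*RPL22L1*, minus strand, chr3:170870196-170870315: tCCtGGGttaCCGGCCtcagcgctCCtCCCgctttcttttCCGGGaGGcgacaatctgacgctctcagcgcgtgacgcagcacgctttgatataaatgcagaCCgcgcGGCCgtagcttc
Counting overlapping pairs, GG and CC together occurred 39 times in the stretch of *PIGQ*, 40 times in that of *SLC38A10*, 33 times in that of *ARFRP1* and 16 times in that of *RPL22L1*. The genes were picked, the last after its values were seen. Unlike the other 3, *RPL22L1* lies far from a chromosome end (27.4 Mb). The stretches show the letters only.

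The lines differed in their response for 364 of 36204 gene names (1.01%), 220 with a positive value (0.608%) and 144 with a negative one (0.398%). The main pattern was a smaller response in HTOXAR3. In 334 of the 364 names the change in HT29 exceeded that in HTOXAR3 in size, and 30 names changed more in HTOXAR3. For comparison, 62.6% of the 17556 names well above background on all 12 arrays changed more in HT29. For the names with a positive value the median log2 change was -1.25 in HT29 and -0.27 in HTOXAR3, and 144 of them were over 2-fold lower with OXA in HT29 against 13 in HTOXAR3. For the names with a negative value the medians were 1.35 and 0.42, and 95 of them were over 2-fold higher with OXA in HT29 against 30 in HTOXAR3. Within each line on its own, 15.9% of all names were called in HT29 and 10.2% in HTOXAR3, a pair of counts that was not tested as a difference. Over all names the median differential response was 0.01. The names were called on these same values, so the sizes describe them. Among the called names 343 were well above background on all 12 arrays. The arrays lay on 3 slides, 2 of which held all 4 groups, and with slide as a block 360 names were called, of which 316 were among the 364. The count was 223 with only the 12 arrays in the fit, 243 with the replicate number as a block and 1087 with Benjamini-Hochberg adjustment.

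**Figure D1:**
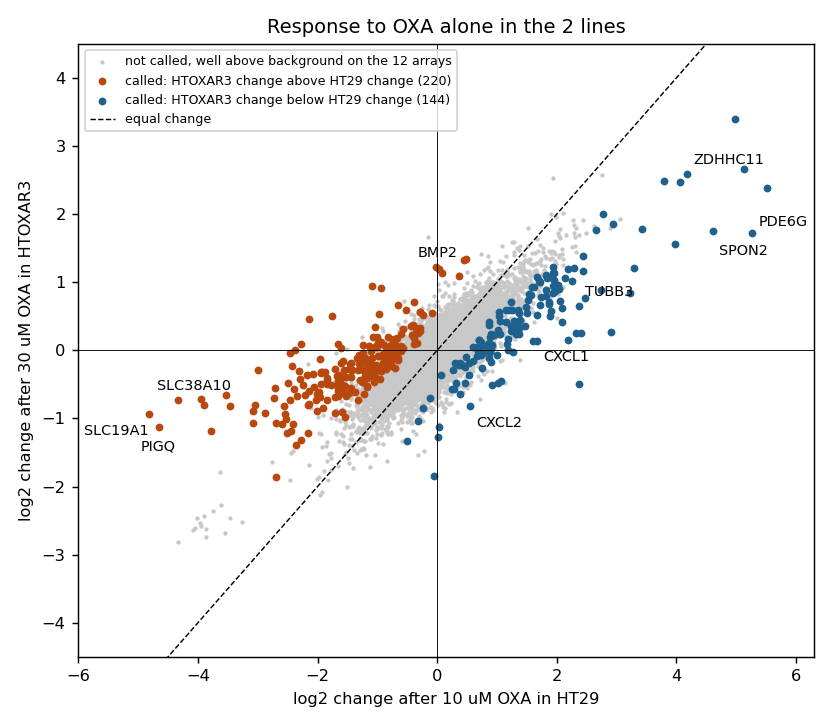
The log2 change after 10 uM OXA in HT29 (x axis) against that after 30 uM OXA in HTOXAR3 (y axis), each point a gene name and the dashed line equal change. The 220 called names with a positive differential response lie above the line and mostly left of 0, and the 144 with a negative one lie below it and mostly right of 0.

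Genes were ranked among called names with a RefSeq symbol whose probe exceeded background clearly on each of the 12 arrays. The genes with the 12 largest positive values all fell in HT29. *SLC19A1*, the reduced folate carrier, had log2 intensities of 11.02, 11.05 and 11.07 in HT29 without drug, 6.12, 6.16 and 6.41 in HT29 after OXA, 11.05, 11.09 and 11.10 in untreated HTOXAR3 and 10.10, 10.10 and 10.23 in HTOXAR3 after OXA. The untreated arrays of the lines overlapped, and the arrays of HT29 after OXA lay far below all others. The differential response of *SLC19A1* was 3.88 (SE 0.21, n = 3 arrays per group), with a change of -4.81 in HT29 and -0.94 in HTOXAR3 (limma, BY adjusted p = 1.76e-06). Its probe lies at chr21:46935085-46935144 of GRCh37, 1.15 Mb from the outermost probe of the long arm.

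*SLC38A10*, an amino acid transporter, gave 14.41, 14.40 and 14.41 in untreated HT29 and 9.87, 10.14 and 10.19 after OXA, against 14.17, 14.05 and 14.20 in untreated HTOXAR3 and 13.34, 13.29 and 13.59 after OXA. Its differential response was 3.61 (SE 0.22, limma, BY adjusted p = 4.81e-06) at chr17:79218836-79218895. *PIGQ*, a subunit of the enzyme that starts the glycosylphosphatidylinositol anchor, went from 10.95, 10.91 and 10.88 to 6.02, 6.22 and 6.53 in HT29, and from 11.33, 11.47 and 11.37 to 10.10, 10.33 and 10.38 in HTOXAR3. Its differential response was 3.53 (SE 0.29, limma, BY adjusted p = 7.78e-05) at chr16:633577-633636. In both genes the arrays of HT29 after OXA stood apart, and no group of one treatment overlapped the other treatment of its line. The positions give the probes in the array's annotation of GRCh37, and exon borders of that build were not used here.

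*CHLSN* (C7orf50 on the array) had a differential response of 3.24 (SE 0.09), and *ARFRP1*, a small GTPase of the Golgi, one of 3.096 (SE 0.17). *PWWP3A* (MUM1 on the array), a chromatin protein, followed at 2.88 (SE 0.15) and the noncoding RNA *PICSAR* at 2.72 (SE 0.13). *BOP1*, a factor of the large ribosomal subunit, changed by -3.46 in HT29 and -0.82 in HTOXAR3, a difference of 2.64 (SE 0.10). *SLX9*, known for its part in ribosome assembly, changed by -2.45 in HT29 and -0.04 in HTOXAR3, a difference of 2.42 (SE 0.10). The name for 5.8S ribosomal RNA, *RNA5-8SN5*, is a multicopy gene whose copies the probe cannot separate. It changed by -2.14 in HT29 and had a value of 0.46 in HTOXAR3 that did not pass the test. The difference was 2.60 (SE 0.33, limma, BY adjusted p = 0.00467) and was not called in a fit of the 12 arrays alone. *ANTKMT*, a mitochondrial lysine methyltransferase, had a value of 2.59 (SE 0.14) and *PPP2R3B*, a regulatory subunit of protein phosphatase 2A, one of 2.36 (SE 0.16). In the wider list of 44 ribosome biogenesis genes, *BOP1* alone was called, against 0.608% of all names, and the median differential response was 0.12.

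In the same ranking, the genes with the 12 largest negative values all rose in HT29, and 7 of them also rose in HTOXAR3, by less. *PDE6G*, the inhibitory subunit of the rod photoreceptor phosphodiesterase, had log2 intensities of 6.71, 6.74 and 6.69 in untreated HT29 and 11.92, 12.05 and 11.98 after OXA, against 6.87, 6.80 and 6.54 in untreated HTOXAR3 and 8.54, 8.53 and 8.32 after OXA. The untreated arrays of the lines overlapped and the treated ones did not. Its differential response was -3.54 (SE 0.12), with a rise of 5.27 in HT29 and of 1.73 in HTOXAR3 (limma, BY adjusted p = 3.12e-08) at chr17:79617490-79617549. *SPON2*, a secreted matrix protein, went from 6.82, 6.95 and 6.84 to 10.94, 11.77 and 11.76 in HT29 and from 7.21, 7.18 and 7.10 to 8.67, 9.002 and 9.07 in HTOXAR3. Its differential response was -2.87 (SE 0.25, limma, BY adjusted p = 1.28e-04) at chr4:1160738-1160797, and averaging it with a second probe of the name, well above background on 3 of 12 arrays, gave -1.59.

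*TUBB3*, the neuronal class of β-tubulin, went from 8.95, 8.997 and 9.25 to 11.38, 11.47 and 11.45 in HT29 and from 10.15, 10.30 and 10.19 to 10.86, 10.83 and 10.91 in HTOXAR3. Untreated HTOXAR3 thus lay above untreated HT29, and the order turned after OXA. The difference was -1.72 (SE 0.11, limma, BY adjusted p = 1.06e-05). *NHLRC4* had a value of -2.15 (SE 0.28), *RGS11*, a regulator of G protein signalling, one of -1.87 (SE 0.21) and *BAIAP3*, a factor of vesicle release, one of -1.64 (SE 0.19). *ZDHHC11* and *ZDHHC11B*, paralogs whose probes may share transcripts, rose by 4.18 and 4.05 in HT29 and by 2.59 and 2.47 in HTOXAR3, with differential responses of -1.60 (SE 0.18) and -1.59 (SE 0.18). The calls of *NHLRC4* and *ZDHHC11* were not made in a fit of the 12 arrays alone, and *NHLRC4* was not called with the mean of its probes.

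The same 12 held 3 H/ACA small nucleolar RNAs, which guide pseudouridylation of ribosomal RNA. Over all 295 small nucleolar RNA names on the array, a set taken up after its values were seen, 4 were called with a negative value and 3 with a positive one (0.398% and 0.608% of all names), and the median was -0.05. Those with a positive value were *SNORA24* at 1.21, *SNORA13* at 1.03 and *SNORA26* at 0.91, and each fell in HT29. *SNORA48* went from 10.78, 10.77 and 10.28 to 13.12, 12.60 and 12.67 in HT29 and from 11.91, 11.996 and 11.71 to 12.11, 11.99 and 11.99 in HTOXAR3. The difference was -2.03 (SE 0.22, limma, BY adjusted p = 9.98e-04). *SNORA63* had a rise of 1.03 in HT29, a value of -0.48 in HTOXAR3 that did not pass the test and a differential response of -1.51 (SE 0.16). *SNORA44* gave -1.52 (SE 0.24). That call was made again on leaving out HT29 OXA replicate 2 (-1.62), and was lost on leaving out any one of the other 11 arrays, with values from -1.34 to -1.61, and in the fit of the 12 arrays alone. These RNAs are cut from introns of host genes, and the probes may read host transcripts too.

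**Figure D2:**
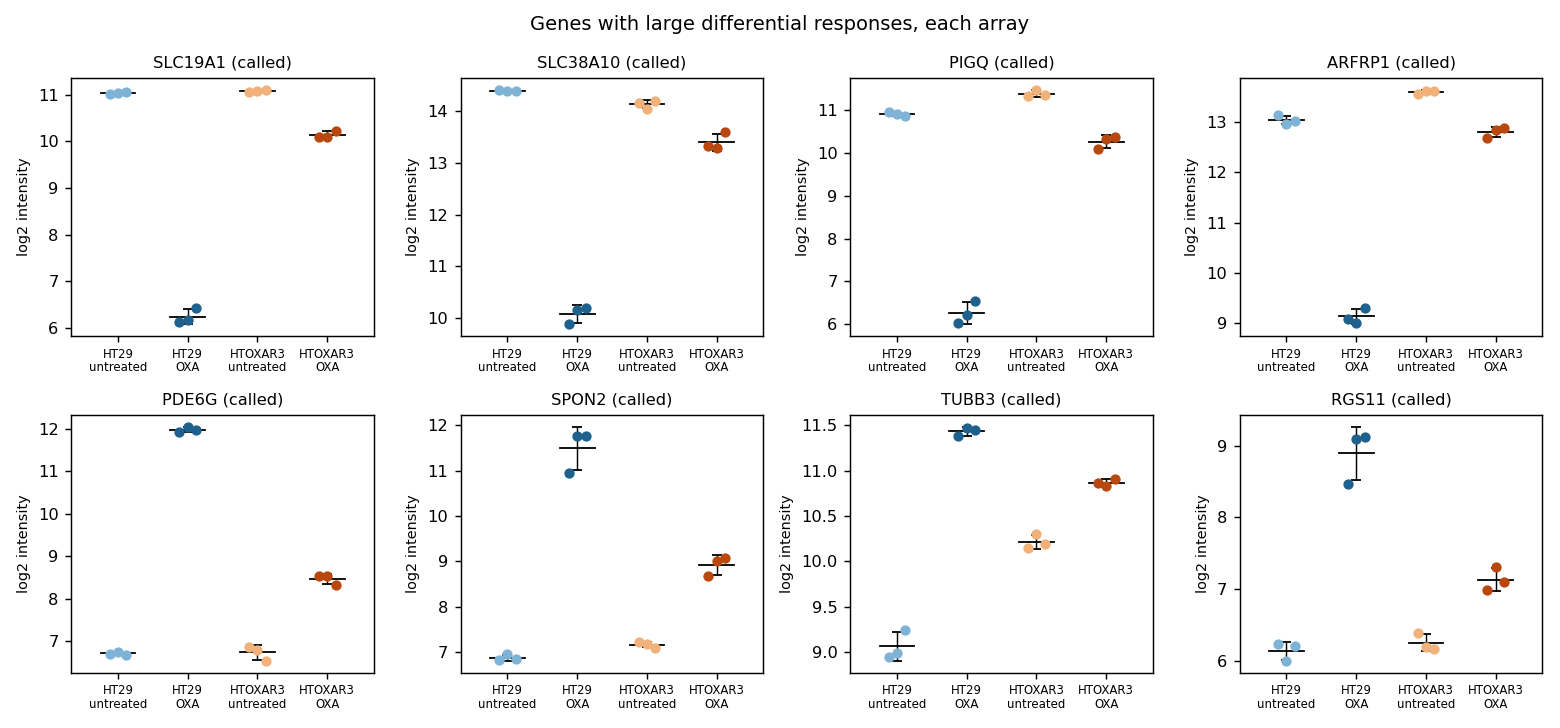
Log2 intensity (y axis) on each of the 3 arrays of each group (x axis) for 8 genes with large differential responses, with the group mean as a bar and the SD as whiskers. In the upper row HT29 after OXA lies below all other groups, and in the lower row it lies above them.

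The called names with a positive value lay close to the ends of chromosomes. Of the 219 with a position, 145 (66.2%, 95% Wilson interval 59.7 to 72.1%) were within 5 Mb of the outermost probe at a chromosome end, against 13.5% of all names tested and 14.7% of names well above background on the 12 arrays. Within 2 Mb were 50.2% of them, against 6.86% of all names. The median distance was 1.97 Mb, against 29.9 Mb over all names. Of the 144 names with a negative value, 29.2% (22.4 to 37.1%) were within 5 Mb. Neighbouring genes are not independent, so the intervals cover counting error only. On leaving out each array in turn the share within 5 Mb was 66.5 to 71.1%, and it was lower with looser calls, at 44.7% with the adjustment of Benjamini and Hochberg. Position was not part of the rule that chose the names, and the distance was examined after the values were seen.

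By distance, 6.22% of names well above background were called with a positive value in the outermost 1 Mb, 9.40% from 1 to 2 Mb, 4.58% from 2 to 3 Mb and 1.97% from 3 to 5 Mb. From 10 to 20 Mb the share was 0.193%, and beyond 50 Mb it was 0.523%. A level over 2-fold lower with OXA in HT29 was found for 11.04% of names from 1 to 2 Mb and for 2.24% beyond 50 Mb. In HTOXAR3 those shares were 1.49% and 0.962%. Names with a positive value were found at 27 of 43 chromosome ends with probes. The short arm of chromosome 16 led with 25 of 188 names (13.3%), among them *PIGQ*, *ANTKMT*, *AXIN1*, a scaffold of the β-catenin destruction complex, *MPG* and *NTHL1*, glycosylases of base excision repair, and *MLST8*, a subunit of both mTOR complexes. The short arm of chromosome 7 held 7 of 54 (12.96%), that of chromosome 5 held 5 of 40 (12.5%) and that of chromosome 1 held 11 of 102 (10.8%). The long arm of chromosome 8 held 11 of 106 (10.4%) and that of chromosome 2 held 6 of 59 (10.2%). Shares at the other ends were at most 9.01%, with 8 of 96 (8.33%) on the long arm of chromosome 21.

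**Figure D3:**
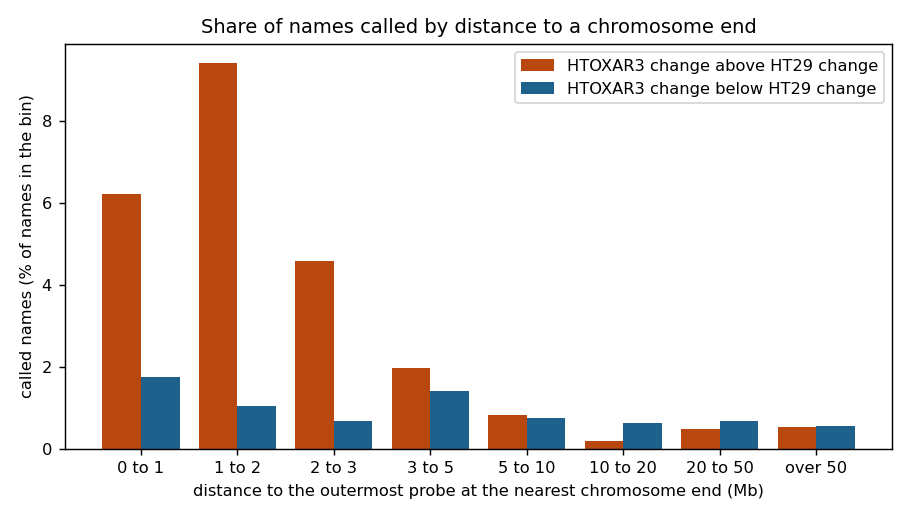
Share of names well above background on the 12 arrays that were called (y axis, percent) by distance of the probe to the outermost probe at the nearest chromosome end (x axis, Mb), with positive and negative differential responses as separate bars. The share with a positive value is 9.40% from 1 to 2 Mb and 0.193% from 10 to 20 Mb.

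Base composition moved with position. The 163 called names with a positive value and a promoter in the RefSeq table had a median GC content of 70.4% in the 250 bases before the start, against 64.0% over 11077 names well above background. Uncalled names within 5 Mb of an end had 69.4%. The median count of GG and CC in those bases was 66 for the called names, 62 for called names with a negative value, whose median GC content was 63.5%, 64 for uncalled names near an end and 55 for uncalled names farther away. Called names with a positive value farther away had medians of 66.2% and 56.6, and the GC content of uncalled names there was 63.2%. The excess near the ends was seen in each band of GC content of the probes themselves. Among probes under 40% GC, 4.18% of names near an end and 0.458% of names farther away had a positive call, and among probes of 50 to 60% the shares were 6.64% and 0.513%. The part of base composition in the result was not tested.

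Some names with a negative value had a neighbour with a positive one. Within 100 kb of a name with a positive call lay 17 of the 144 names with a negative call (11.8%, 95% Wilson interval 7.50 to 18.1%), against 4.22% of uncalled names well above background. The 144 were not limited to names well above background. Of the names with a positive call, 81 of 219 (37.0%) lay that near another, a larger share. Among names within 5 Mb of an end the shares were 35.7% (15 of 42) and 22.3%, with intervals of 23.0 to 50.8% and 20.7 to 24.0%. *NHLRC4* and *PIGQ* have probes 14.4 kb apart, and in HT29 the former rose by 2.40 while the latter fell by 4.66. *BAIAP3* rose by 3.43 in HT29, while *TSR3*, a ribosomal RNA modification enzyme 1.08 kb away, fell by 1.197. *RGS11* rose by 2.75 and *AXIN1*, 20.5 kb away, fell by 1.304. *SPON2* rose by 4.62 and *CTBP1*, a transcriptional corepressor 45.0 kb away, fell by 1.21. In HTOXAR3 the changes of *NHLRC4* and *PIGQ* were 0.25 and -1.13, and those of *SPON2* and *CTBP1* were 1.75 and -0.14.

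Probes of 1 gene could differ. For 4125 gene names with probes well above background at different places, the differential response of the most downstream probe was compared with that of the most upstream one. The probes differed for 43 names (1.04%), 28 with the higher value downstream (0.679%) and 15 with the higher value upstream (0.364%). Over all 4125 names 47.9% had the higher value downstream, with a median difference of -0.01. With the adjustment of Benjamini and Hochberg 58 had the higher value downstream and 60 upstream, so the uneven split was not kept. Of the 43 names 29 lay within 5 Mb of a chromosome end, as did 14.6% of all names compared. The comparison was added after the values were seen.

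In *SLC38A10* the downstream probe had a differential response of 3.61 and one 6.23 kb upstream had 1.10, a difference of 2.51 (SE 0.21, limma, BY adjusted p = 4.34e-05). HT29 changed by -4.34 downstream and -2.08 upstream, and HTOXAR3 by -0.73 and -0.98. In *SLC19A1* the values were 3.88 downstream and 1.90 upstream, and in *ARFRP1* the 2 downstream probes had 1.496 and 3.096 and the upstream one -0.19. *PRKCZ*, an atypical protein kinase C, changed in HT29 by -1.11 downstream and 0.83 upstream, against -0.01 and 0.02 in HTOXAR3. *XRCC3*, a protein of recombination repair, changed in HT29 by -1.54 downstream and 0.12 upstream, against 0.16 and -0.13. The order was the opposite in *CAPN15*, a calpain family protease, where HT29 changed by -2.10 downstream and -5.41 upstream and HTOXAR3 by -0.84 and -1.85. It was also the opposite in *MAD1L1*, a spindle checkpoint protein, with -1.61 and -2.91 in HT29 and -0.39 and -0.49 in HTOXAR3. The values of *SLC38A10*, *ARFRP1* and *PWWP3A* with the mean of all their probes were 1.25, 1.47 and 1.72. For *SLC38A10* that mean includes a probe still farther upstream, well above background on 5 of 12 arrays, which had -0.97.

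**Figure D4:**
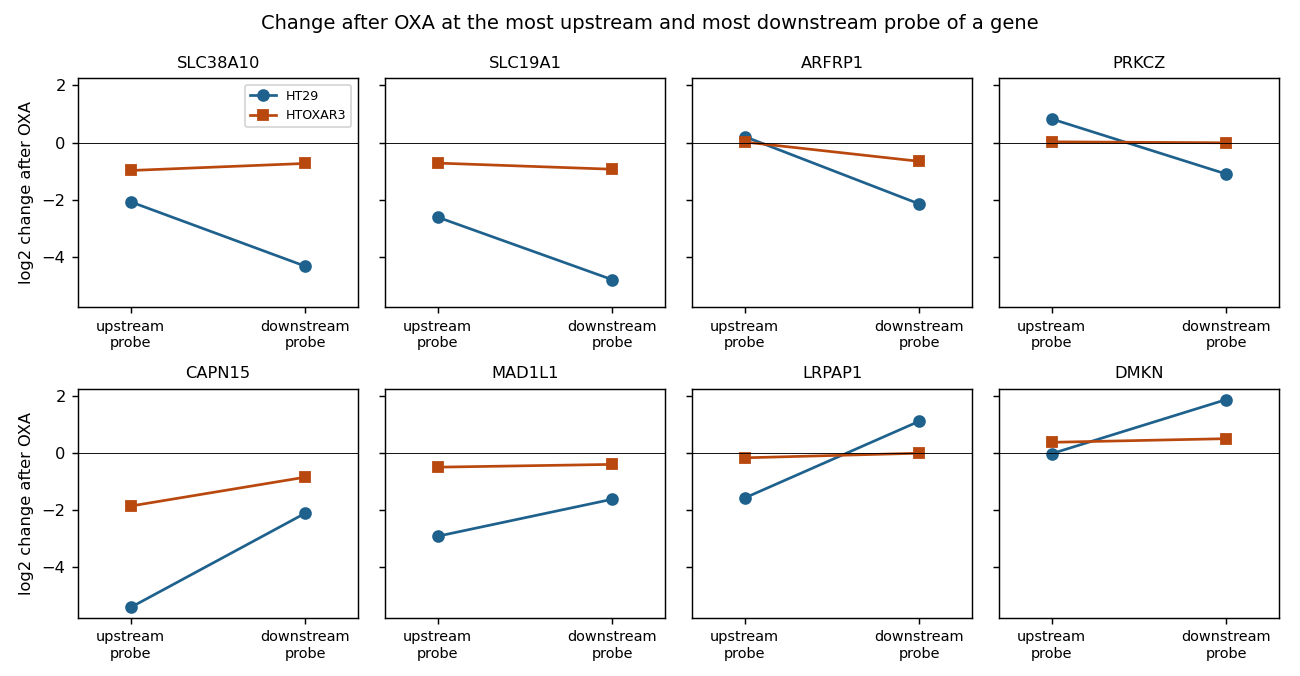
Log2 change after OXA (y axis) at the most upstream and the most downstream probe well above background of 8 genes (x axis), circles for HT29 and squares for HTOXAR3. The lines of HT29 are steep, falling downstream in the upper row and rising downstream in the lower row, and those of HTOXAR3 are flatter.

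Genes controlled by NF-κB were next. The list of 50 NF-κB targets held 1 called gene with a positive value and 4 with a negative one (0.608% and 0.398% of all names), and its median was -0.10 against 0.01 over all names. In HT29 29 of them rose and 2 fell (8.33% and 7.62% of all names), and in HTOXAR3 23 rose and 2 fell (5.31% and 4.94%). The positive one was *BMP2*, described below with its own pathway, and the 4 with a negative value were *CXCL1*, *CXCL2*, *PLAU*, the urokinase plasminogen activator, and *TNFAIP2*, a protein that TNF induces.

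*CXCL1* had log2 intensities of 10.48, 10.46 and 11.02 in HT29 without drug, 12.39, 12.31 and 12.28 with it, 12.04, 12.11 and 12.26 in untreated HTOXAR3 and 12.38, 12.24 and 12.22 in HTOXAR3 after OXA. HT29 after OXA reached the range of treated HTOXAR3, whose untreated arrays already lay near it. The value was -1.53 (SE 0.19), with a rise of 1.67 in HT29 and a value of 0.14 in HTOXAR3 that did not pass the test (limma, BY adjusted p = 0.00373). *CXCL2* had 10.15, 10.29 and 10.62 in untreated HT29 and 10.90, 11.01 and 10.83 after OXA, against 11.48, 11.29 and 11.39 in untreated HTOXAR3 and 10.58, 10.38 and 10.74 after OXA. It rose by 0.56 in HT29 (BY adjusted p = 0.0492) and fell by 0.82 in HTOXAR3 (BY adjusted p = 0.00422), a differential response of -1.38 (SE 0.18, limma, BY adjusted p = 0.0064). Within the 2 slides that held all groups the value was -1.52 and -1.04. A second *CXCL2* probe had 0.90 in HT29 and -0.27 in HTOXAR3, a differential response of -1.17 that did not pass (limma, BY adjusted p = 0.0947), so the call was that of 1 probe. Untreated HTOXAR3 was the highest group, and after OXA the difference between the lines, -0.35, did not pass the test (limma, BY adjusted p = 0.786).

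*CXCL8* did not pass the test. It had 6.17, 6.58 and 7.34 in untreated HT29, 8.61, 8.60 and 8.56 after OXA, 9.34, 9.32 and 9.32 in untreated HTOXAR3 and 10.04, 9.73 and 9.72 after OXA. The spread among the untreated HT29 arrays (SD 0.59) was the widest of the 4 groups. The difference was -1.39 (SE 0.29, limma, BY adjusted p = 0.2), and it passed on leaving out untreated HT29 replicate 3, with a value of -1.71. A further name on the array without a gene symbol, THC2544321, was noticed after its values were seen. Its probe ends 1.22 kb before that of *CXCL8*. Gene borders of GRCh37 were not used, so whether this probe also reads *CXCL8* was not tested. THC2544321 was called at -2.07 (SE 0.24, limma, BY adjusted p = 0.00241), with a rise of 2.32 in HT29 and a value of 0.26 in HTOXAR3. Untreated HT29 was well above background for THC2544321 on 1 of 3 arrays, so these values are not exact. *CXCL3* had a value of -0.99 (SE 0.23, limma, BY adjusted p = 0.31) and passed on leaving out the same array, at -1.19. *CXCL8* and *CXCL3* also passed with the adjustment of Benjamini and Hochberg.

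*PLAU* rose in both lines, by 2.77 in HT29 and 2.00 in HTOXAR3, with a differential response of -0.77 (SE 0.08) that was not called with the mean of its probes. *TNFAIP2* had a value of -0.72 (SE 0.10), and was not called in a fit of the 12 arrays alone. The gene for the NF-κB subunit p65, *RELA*, had a change of 0.23 in each line that did not pass the test, and its differential response was 0.0035 (SE 0.08). *NFKBIA*, the NF-κB inhibitor, had -0.33 (SE 0.12), *BIRC5*, which encodes survivin, 0.01 (SE 0.08), *BCL2* 0.29 (SE 0.15), *CCND1*, which encodes cyclin D1, -0.07 (SE 0.08) and *AKT1* 0.31 (SE 0.13). None of these 6 was called, each with a BY adjusted p of 1 in limma.

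The p53 targets were the next list. Of 33 genes on it, 4 were called with a positive value (0.608% of all names) and 0 with a negative one, 16 had an unadjusted p below 0.05 (13.7% of all names), and the values ran from -0.60 to 0.85 with a median of 0.12. *FAS*, the death receptor, had 8.49, 8.57 and 8.64 in untreated HT29 and 8.20, 8.33 and 8.45 after OXA, against 8.81, 8.78 and 8.77 in untreated HTOXAR3 and 9.34, 9.25 and 9.33 after OXA. It rose by 0.52 in HTOXAR3 and had a value of -0.24 in HT29 that did not pass, a differential response of 0.76 (SE 0.09, limma, BY adjusted p = 0.00358). Further *FAS* probes had 0.63 and 0.72 and did not pass (limma, BY adjusted p = 0.431 and 0.159), so the call was that of a single probe. *GADD45A*, a growth arrest protein, fell by 0.83 in HT29 and changed by -0.01 in HTOXAR3, a differential response of 0.82 (SE 0.12). *PLK3*, a stress kinase, had 0.64 (SE 0.09) and *PMAIP1*, which encodes the BH3-only protein NOXA, 0.62 (SE 0.10). *CDKN1A*, the inhibitor p21, had 0.85 (SE 0.19, limma, BY adjusted p = 0.31) and did not pass, although it rose by 0.88 in HTOXAR3 with a value of 0.04 in HT29.

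The calls of *GADD45A*, *PLK3* and *PMAIP1* rested on small margins, and none of the 4 was called in a fit of the 12 arrays alone. *GADD45A* passed on leaving out untreated HT29 replicate 2 (0.85) or untreated HTOXAR3 replicate 2 (0.73) or 3 (0.90), and was lost without any one of the other 9 arrays, at 0.78 to 0.84. *PMAIP1* passed on leaving out HT29 replicate 1, untreated (0.67) or after OXA (0.66), and was lost without any one of the other 10, at 0.55 to 0.65. *PLK3* was lost without untreated HT29 replicate 1 (0.62), untreated HTOXAR3 replicate 1 (0.60), or HTOXAR3 OXA replicate 2 (0.61) or 3 (0.62). With slide as a block *GADD45A* (0.80) and *PMAIP1* (0.61) were not called, and with the replicate number as a block *PLK3* and *PMAIP1* were not. Among 37 apoptosis regulators 3 were called with a positive value (0.608% of all names), *FAS*, *PMAIP1* and *BOK*, a BCL2 family effector that fell by 2.35 in HT29 and 0.67 in HTOXAR3 (differential response 1.67, SE 0.16). *BOK* lies 0.654 Mb from the end of its arm, and the median of the list was -0.03.

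In the BMP and TGF-β list 2 of 22 genes were called, both with a positive value (0.608% of all names) and a rise in HTOXAR3. *BMP2*, a ligand of the pathway, had 8.97, 8.95 and 9.13 in untreated HT29, 9.02, 8.94 and 9.02 after OXA, 7.51, 7.31 and 7.37 in untreated HTOXAR3 and 8.81, 8.66 and 8.39 after OXA. It rose by 1.22 in HTOXAR3, with a value of -0.02 in HT29 and a differential response of 1.25 (SE 0.15, limma, BY adjusted p = 0.00331). *BAMBI*, a pseudoreceptor that dampens BMP and TGF-β signals, went from 6.26, 6.03 and 6.09 to 7.31, 7.37 and 7.28 in HTOXAR3 and stayed between 8.86 and 9.05 in HT29, a differential response of 1.16 (SE 0.14, limma, BY adjusted p = 0.00385). In untreated cells both were lower in HTOXAR3, and after OXA the difference between the lines, -1.66, passed the test for *BAMBI* (limma, BY adjusted p = 2.68e-07), while that for *BMP2*, -0.38, did not (0.217). The other 20 of 22 genes on the list did not pass, and its median was 0.01.

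**Figure D5:**
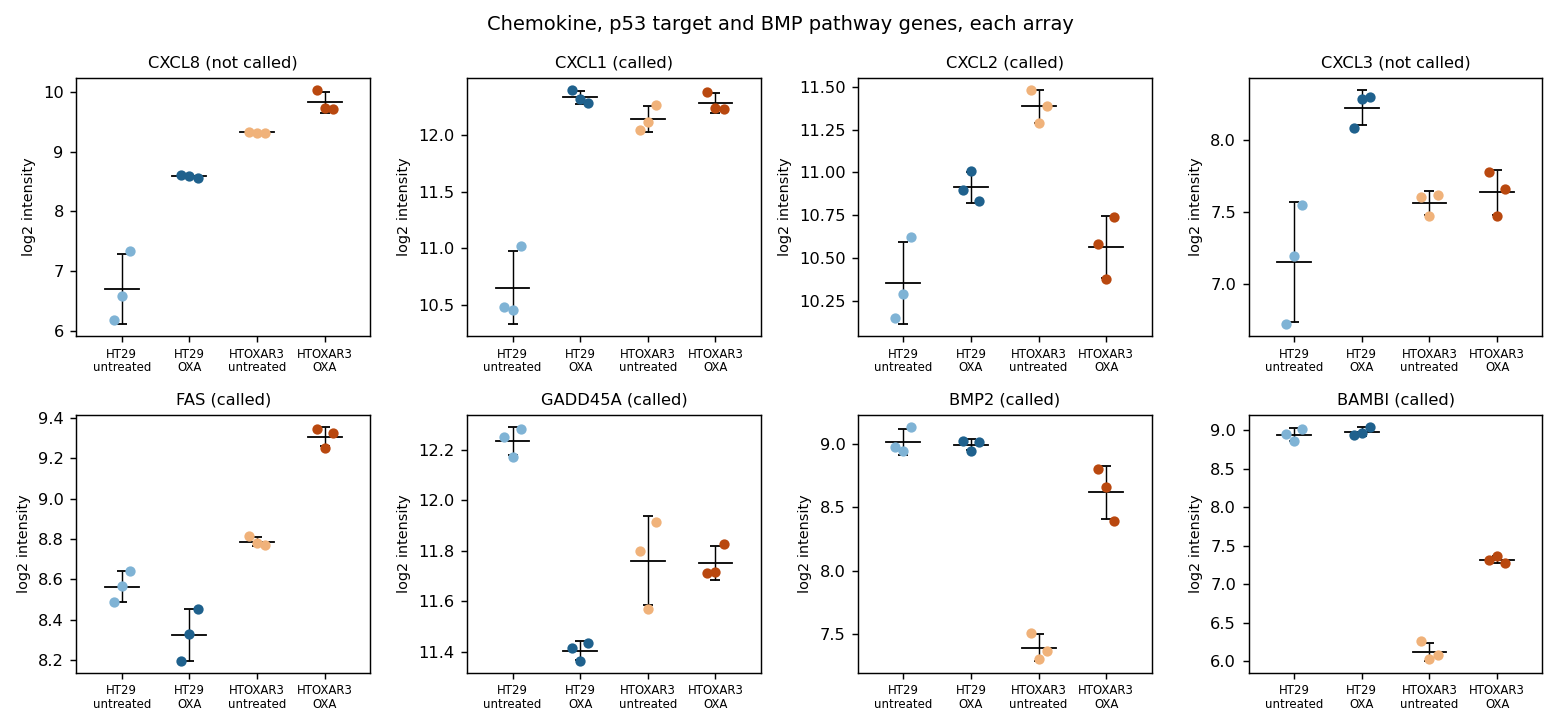
Log2 intensity (y axis) on each of the 3 arrays of each group (x axis) for 4 chemokine genes, 2 p53 targets and 2 BMP pathway genes, with the group mean as a bar and the SD as whiskers. *CXCL1* is low only in untreated HT29, and *BMP2* and *BAMBI* rise only in HTOXAR3.

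Matrix and differentiation genes came next. Of 33 genes of EMT and matrix, 3 were called, all with a negative value (0.398% of all names), and the median was 0.04. *TIMP2*, an inhibitor of metalloproteinases, rose by 2.03 in HT29 and 0.90 in HTOXAR3 (differential response -1.13, SE 0.11). *LAMC1*, a laminin chain, rose by 1.00 in HT29 and changed by -0.07 in HTOXAR3 (-1.07, SE 0.11), and *MMP7*, matrilysin, rose by 1.15 and 0.42 (-0.73, SE 0.08). *VIL1*, the microvillus protein villin, rose by 1.06 in HT29 and was the only called gene of 37 in intestinal differentiation (-0.82, SE 0.10), a call not made with the replicate number as a block. *NKD1*, a feedback inhibitor of Wnt signalling, was the only one of 20 Wnt and stem cell targets (-1.33, SE 0.22). Untreated HTOXAR3 was well above background for *NKD1* on 0 of 3 arrays, so its level there has only a bound and the value is not exact. The call was made again only without untreated HTOXAR3 replicate 2 (-1.52) or 3 (-1.11). It was lost without any one of the other 10, at -1.27 to -1.42, in a fit of the 12 arrays alone, with the replicate number as a block and with either scaling to the 75th percentile.

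The repair, cell cycle and stress lists were read against 1.01% of all names called. No gene was called among 30 of the Fanconi anemia pathway and homologous recombination, 8 of mismatch repair, 16 of translesion synthesis and 25 of the DNA damage checkpoint, and limma gave an unadjusted p below 0.05 for 9, 2, 2 and 3 of them, against 13.7% of all names. Of 24 nucleotide excision repair genes on the array, *UVSSA*, which acts on RNA polymerase II stalled at damage, was called at 1.62 (SE 0.27), with a fall of 1.93 in HT29 and a value of -0.32 in HTOXAR3 that did not pass. It lies 1.33 Mb from the end of its arm, and its call was made again only without HT29 OXA replicate 1 (1.301), 2 (1.80) or 3 (1.74). It was lost without any one of the other 9 arrays, at 1.55 to 1.67, in a fit of the 12 arrays alone and with the replicate number as a block. A second *UVSSA* probe, well above background on 11 of 12 arrays, passed at 1.88 (limma, BY adjusted p = 8.82e-04). A further *UVSSA* probe had 0.50 and did not pass. Of 48 replication genes *CHAF1A*, a histone chaperone subunit, was called at 0.76 (SE 0.11), and the call was lost without untreated HTOXAR3 replicate 1 (0.73) or 3 (0.74), in a fit of the 12 arrays alone and with the replicate number as a block.

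Of 40 genes of G2 and mitosis none was called, 13 had an unadjusted p below 0.05 in limma, while 26 fell in HT29 and 24 in HTOXAR3 (7.62% and 4.94% of all names). None of 56 clustered histone genes was called and 12 had an unadjusted p below 0.05, while 46 fell in HT29 and 30 in HTOXAR3 (7.62% and 4.94% of all names), at medians of -0.79 and -0.54. Among 31 genes of ATF4 and the unfolded protein response *SLC7A5*, an amino acid transporter, was called at 0.86 (SE 0.09), with falls of 1.53 in HT29 and 0.67 in HTOXAR3. In that list 15 of 31 genes had an unadjusted p below 0.05 in limma, against 13.7% of all names, and the median was 0.19. The lists of 46 interferon-stimulated genes, 27 NRF2 targets, 9 metallothioneins, 21 platinum and copper transporters, 22 heat shock proteins, 31 genes of cholesterol and fatty acid synthesis, 20 immediate early genes, 23 of ERK feedback and EGF ligands and 13 of G1 control held no called gene. Their members with an unadjusted p below 0.05 in limma numbered 9, 4, 1, 5, 5, 9, 3, 8 and 3, to be read against the same 13.7%.

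The 30 names that changed more in HTOXAR3 included *CXCL2*, *BMP2*, *BAMBI*, *FAS* and *PMAIP1*. The second *CXCL2* probe changed more in HT29 (0.90, against -0.27 in HTOXAR3). For *PMAIP1* the sizes were close (0.33 in HTOXAR3 and -0.29 in HT29). *RPL22L1* had 15.79, 15.76 and 15.74 in untreated HT29, 15.60, 15.83 and 15.91 after OXA, 17.35, 17.30 and 17.28 in untreated HTOXAR3 and 16.06, 16.06 and 15.96 after OXA. It fell by 1.28 in HTOXAR3 to just above the range of HT29, a differential response of -1.296 (SE 0.12, limma, BY adjusted p = 2.48e-04). *WNT11*, a Wnt ligand, fell by 1.12 in HTOXAR3 with a value of 0.03 in HT29. *FJX1* had a differential response of 1.12, *DHRS9*, a retinol dehydrogenase, 1.32 and *STRA6*, a retinol transporter, 1.06. *HOTTIP*, a noncoding RNA of the HOXA cluster, had -0.82. Apart from the first 5, these names were chosen after their values were seen.

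The arrays of OXA plus Curcumin gave another comparison of HTOXAR3 with HT29. They are not part of the differential response, but they shared its normalization and its estimate of the spread, and 223 names were called without them, so the comparison is not independent of the calls. It has no untreated arrays and its difference therefore includes that of the untreated lines, whose median was -0.03 for the names with a positive value and 0.44 for those with a negative value. Of the 220 names with a positive value, 135 were higher in HTOXAR3 after OXA plus Curcumin and 13 lower, against 6.95% and 6.92% of all names (13.9% in all), and their median difference was 0.52. Of the 144 with a negative value, 63 were lower and 36 higher, with a median of -0.22. *SLC19A1* was 2.20 higher in HTOXAR3 under the combination, *PIGQ* 2.22 higher and *ARFRP1* 2.31 higher. *PDE6G* differed there by -2.90 and *SPON2* by -2.17, while *TUBB3* differed by -0.13.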

How the data were processed

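Gene expression was measured in 18 one-colour Agilent arrays, 3 for each of 6 groups, of which 12 entered the comparison. The authors deposited scanner files with mean and local background intensity for each spot, produced by Agilent Feature Extraction, and a table of log2 values that they had background-corrected and normalized and whose rows carried no gene names here. Each array held 62976 spots, 58717 of them measuring transcripts, and 52.4 to 63.2% of these were well above background on the 12 arrays, which with the number of arrays limits the precision.

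Mean intensities were corrected with normexp (offset 0), set to log2 and quantile normalized over the 18 arrays (limma 3.58.1, R 4.3.3). Control spots and outlier flags were left out, spots of a probe were averaged, and of 50599 probes the one with the highest mean stood for each of 36204 names, 8947 of which had several. RefSeq accessions gave the current symbol of 21757 names, symbols that of 682 and former symbols that of 228. A model with 6 group means gave the differential response, with a BY threshold of 0.05 and a minimum fold of 1.2 for calls. In a test on simulated data made for this comparison with 36057 genes, 4% of differences of 1.5-fold, 38% of 2-fold, 54% of 4-fold and 84% of 8-fold were called, and 0 unchanged genes were. The simulation changed 50 names at each fold and drew noise independently for each array. It therefore does not cover deviations that arrays of a slide share. The text names the 12 largest called values in each direction among names with a RefSeq symbol and well above background on all 12 arrays, the called members of gene lists and genes that the study assayed by other means. *CXCL3* and *CDKN1A*, neither called nor assayed by the study, were named beside these. The members and lists were chosen with earlier results of these data known. The study describes the 3 arrays of a group as biological replicates. The alternatives were another adjustment, fold, background offset, scaling, probe rule, set of arrays, block for slide or replicate number, the deposited log2 table, and leaving out each array. Unused sample columns numbered 0. Python 3.11.15 was used for summaries.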

Additional observations from a re-analysis of the deposited data

Results flagged for a closer look

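The response to OXA alone differed between the lines, by the test of the difference itself, for 364 gene names. The downstream and upstream probes of 1 gene differed in their differential response for 43 of 4125 gene names. *CXCL2* rose in HT29 and fell in HTOXAR3, with both changes past the test at 1 probe and a differential response of -1.38. A second probe of the gene had -0.27 in HTOXAR3 and a differential response of -1.17 that did not pass.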

How the results depend on the processing

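The count of 364 called names was 1087 with the adjustment of Benjamini and Hochberg, which also moved the share of positive values from 60.4% to 48.8%, 178 above 2-fold, 223 in a fit of the 12 arrays alone, 646 without dim probes and 636 with a normexp offset of 50. The share of names with a positive value within 5 Mb of a chromosome end was 44.7% with that adjustment, 76.7% above 2-fold, 53.6% without dim probes and 52.9% with that offset. Gene names whose probes differed numbered 118 with that adjustment, 58 higher downstream and 60 higher upstream. On leaving out each array in turn, called names numbered 257 to 321, the share near an end was 66.5 to 71.1%, and names whose probes differed numbered 33 to 57. The value of *RELA* turned to -0.0037 with slide as a block and ran from -0.0598 to 0.0383 over the arrays left out, that of *BIRC5* from -0.0421 to 0.061, and that of *BCL2* was -0.15 with the mean of all probes. None of the 3 was called, and the cause was not tested. Scaling the processed signal to its 75th percentile moved the median of all names to -0.10, and 455 names were called.

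Same-numbered arrays deviated together in HT29 (correlations 0.333, 0.324 and 0.413) but not throughout HTOXAR3 (0.275, -0.099 and 0.191), where the pair at -0.099 was the only 1 of the 6 on different slides. The numbers were not taken as pairs. With the replicate number as a block 243 names were called, and *PLK3*, *PMAIP1*, *VIL1*, *NKD1*, *UVSSA* and *CHAF1A* were not. With slide as a block 360 were called, 316 of them among the 364. Of 42 called genes named by the rule, 35 were called on leaving out any 1 array, and 0 reversed in any setting.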
